A study of Mus musculus with 8 samples.

Results

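The genes of the mitotic spindle, the kinetochore and condensin were examined in RNA sequencing of gastric squamous-columnar junction (SCJ) cancers. They were 51 genes chosen by symbol for their known work in mitosis, and all 51 were found among the 23361 genes of the deposited table. The SCJ is the line in the mouse stomach where the squamous lining of the forestomach meets the glandular lining. The 5 cancers were Trp53-/-Rb1-/-. They arose in mice with floxed Trp53 and Rb1, the Ai9 tdTomato reporter and Lgr5-eGFP-IRES-CreERT2 knocked into Lgr5, after tamoxifen, so that Cre was driven in Lgr5-expressing cells, and the tumors were dissected along the border of tdTomato fluorescence. The 3 controls were SCJ tissue of wild type mice paired with them for age. The study's methods state that control mice of the tumor experiments also received tamoxifen, without saying whether these wild type mice were among them. In its survival figures the controls are instead mice of the floxed genotype that were not given tamoxifen. Both groups were whole pieces of tissue, and the study's methods describe the controls as 3 stomachs. They do not say that each cancer came from a separate mouse, so the p-values measure the spread between these samples.

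Mitosis divides the copied chromosomes between the daughter cells. Condensin packs the chromosomes, and the kinetochore, built on centromeric chromatin, ties each of them to spindle microtubules that kinesin motors arrange. The spindle checkpoint holds the anaphase-promoting complex back until every kinetochore is attached, after which cohesin is cut and the cell divides. Most of these genes are transcribed mainly in the G2 phase and in mitosis, so in a tissue their RNA is widely read as a mark of dividing cells. Many of their promoters carry a cell cycle genes homology region (CHR), TTTGAA, a site read by the MuvB complexes, which include DREAM with an Rb-family protein, and CCAAT boxes bound by NF-Y.

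RefSeq promoter windows (GRCm38.p6) from 250 bases before to 50 bases after a transcription start were at hand for 44 of the 51 genes, in 49 windows. The 7 stretches printed here run from 120 bases before the start to 30 bases after it and were chosen because they place the CHR close to the start in genes of different roles, in those that rose in the cancers (Spc25, Prc1, Kif22 and Ube2c) and in those that did not pass the test (Top2a, Cdca8 and Kif11). Capitals mark the CHR (TTTGAA, or TTCAAA on the other strand), its variant TTCGAA, and CCAAT boxes (CCAAT, or ATTGG on the other strand). In Cdca8 the CHR and a CCAAT box share a base.
Spc25 (chr2:69206184-69206333, minus strand): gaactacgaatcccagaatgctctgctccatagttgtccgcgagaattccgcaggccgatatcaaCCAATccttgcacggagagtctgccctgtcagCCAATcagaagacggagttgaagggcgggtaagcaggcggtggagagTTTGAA
Prc1 (chr7:80294331-80294480, plus strand): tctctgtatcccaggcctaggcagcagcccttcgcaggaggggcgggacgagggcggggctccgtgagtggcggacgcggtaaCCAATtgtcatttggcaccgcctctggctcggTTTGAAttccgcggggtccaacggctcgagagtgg
Kif22 (chr7:127042391-127042540, minus strand): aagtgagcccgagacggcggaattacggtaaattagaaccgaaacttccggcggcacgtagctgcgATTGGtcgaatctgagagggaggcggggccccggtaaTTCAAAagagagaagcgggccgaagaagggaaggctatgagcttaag
Ube2c (chr2:164769809-164769958, plus strand): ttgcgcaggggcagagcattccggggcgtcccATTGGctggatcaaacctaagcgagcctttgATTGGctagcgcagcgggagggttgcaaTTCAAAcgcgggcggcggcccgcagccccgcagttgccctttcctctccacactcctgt
Top2a (chr11:99024160-99024309, minus strand): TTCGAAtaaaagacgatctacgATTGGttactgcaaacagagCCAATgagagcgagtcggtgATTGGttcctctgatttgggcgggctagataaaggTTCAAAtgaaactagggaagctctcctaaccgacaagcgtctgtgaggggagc
Cdca8 (chr4:124936888-124937037, minus strand): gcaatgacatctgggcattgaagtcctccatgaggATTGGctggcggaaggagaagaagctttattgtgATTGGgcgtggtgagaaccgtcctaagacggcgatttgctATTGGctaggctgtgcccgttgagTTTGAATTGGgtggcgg
Kif11 (chr19:37376262-37376411, plus strand): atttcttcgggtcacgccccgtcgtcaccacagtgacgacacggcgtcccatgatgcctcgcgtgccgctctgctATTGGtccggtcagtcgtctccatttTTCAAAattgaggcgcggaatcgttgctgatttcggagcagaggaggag

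TTTGAA was present on either strand in the windows of 30 of the 44 genes (68.2%), against 14.2% of the 10556 tested genes that had a window and 20.2% of all genes with a window. Either TTTGAA or TTCGAA was present in 33 of them (75.0% against 16.2% of tested genes). CCAAT was in 32 (72.7% against 42.3%), and 25 held both a CHR and a CCAAT box (56.8% against 5.79%). The matches to the CHR or its variant lay close to the start. Counting a site in overlapping windows of a gene as 1, 30 of 44 had their centre within 50 bases of a start, against 25.2% of such sites in the tested genes, and 28 genes had at least 1 match there. Of the CCAAT sites 72.7% lay in the 150 bases before the start, against 65.7% in the tested genes. Letters of E2F sites, TTTGGCGC and TTTCGCGC, were rare, with a match in Ncapd2, Kif15 and Kif18a (6.82% against 1.69%). The genes of DNA replication had E2F letters in 8 of 19 genes with a window (42.1%), TTTGAA in 10.5% and CCAAT in 73.7%. A further set of genes, most of them of the mitotic pathways and counted below, had TTTGAA in 39.2% and CCAAT in 58.1%. Among the mitotic genes the CHR did not separate those that rose from the rest: it was in the windows of 13 of 20 genes that rose (65.0%) and 17 of 24 that did not pass the test (70.8%). These are matches of letters, given without a test.

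**Figure D1:**
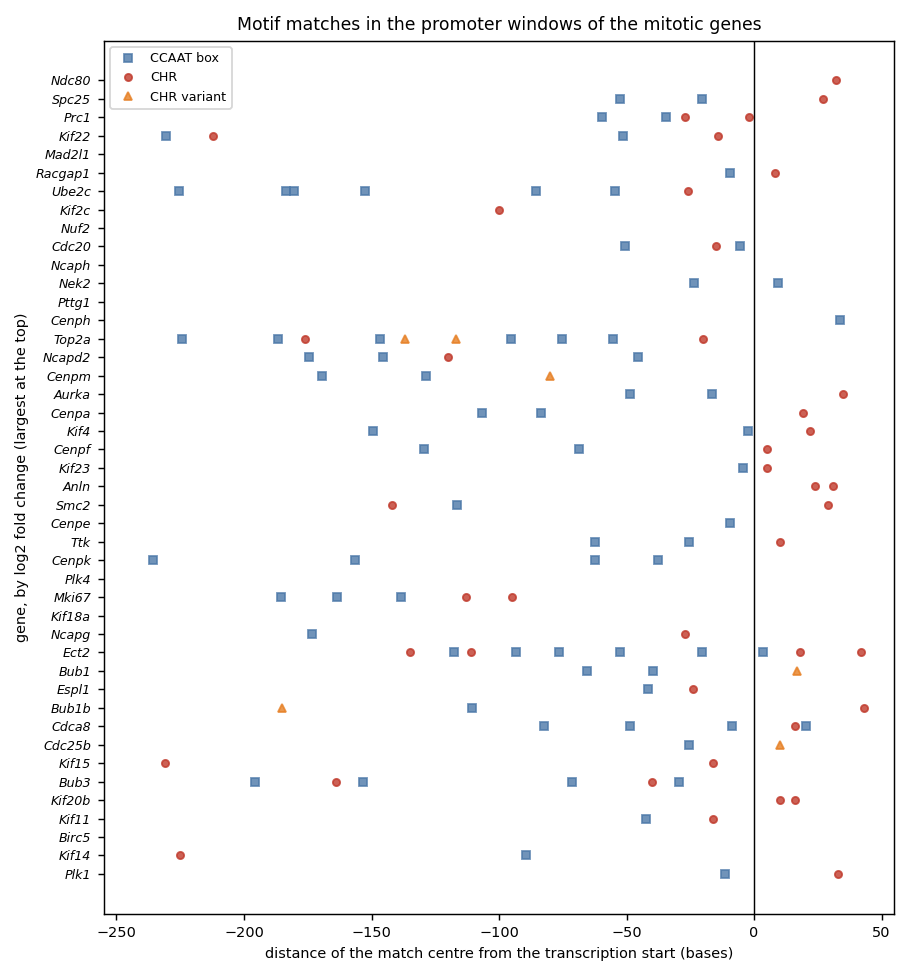
Centres of CHR (red circles), CHR variant (orange triangles) and CCAAT (blue squares) matches along the promoter windows of 44 mitotic genes; the horizontal axis is the distance from the transcription start in bases and genes are ordered by log2 fold change, the largest at the top. Of 44 distinct CHR or variant sites 30 lie within 50 bases of a start; the 4 genes with more than 1 window have the matches of each window drawn, so that a site in overlapping windows appears at each of its distances.

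Expression was measured as FPKM, the sequenced fragments of a gene for its length and for the size of the library, rounded to whole numbers in the deposited table, so depth is unknown and 17 of the 51 genes, with a mean under 5 FPKM, moved in few steps. FPKM summed to between 403569 and 573858 in the cancers and between 887141 and 992550 in the controls, where the 10 most abundant genes took 39.3% to 44.3% of the sum, against 11.1% to 19.6% in the cancers. Rb1 had 4, 4, 5, 6 and 4 FPKM in cancers 1 to 5 and 9, 9 and 10 FPKM in controls 1 to 3 (log2 fold change -0.90, SE 0.16, limma adjusted p = 0.0059; -0.054 with libraries scaled to the same sum). Trp53 had 12, 22, 12, 30 and 12 FPKM in the cancers and 16, 17 and 19 FPKM in the controls (log2 fold change -0.08, SE 0.33, limma adjusted p = 0.87), and values per gene do not separate a deleted exon from the rest of a transcript. The makeup of the tissue differed too. Neuroendocrine markers were higher in every cancer, all 5 of 5 past the test, with summed levels of 7746 to 17202 FPKM against 123 to 185 FPKM. The 10 gland markers summed to 694 to 78716 FPKM in the cancers and 158537 to 240752 FPKM in the controls, with 1 of 10 lower past the test. Squamous markers summed to 0 to 1606 and 1538 to 2581 FPKM, with 1 of 6 (Krt4) lower past the test, and all 6 of them were listed at 0 in cancer 1. At an unadjusted limma p under 0.05, 6 of the 10 gland and 2 of the 6 squamous markers were lower, beside 25.3% of all tested genes. In whole tissue, fewer cells of a type and less RNA per cell cannot be told apart.

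The mitotic genes were mostly higher in the cancers. Of the 51 genes, all of which could be tested, 25 rose (49.0%) and 0 fell in limma on log2(FPKM + 1) with Benjamini-Hochberg adjustment over 14357 genes, beside 16.2% of all tested genes higher and 18.3% lower. At an unadjusted p under 0.05 in the same test, 40 were higher and 0 lower, beside 22.6% of all tested genes higher and 25.3% lower. Of the 26 that were not called, 15 had an adjusted p between 0.05 and 0.10. The log2 fold change was above 0 for 50 of the 51 genes (98.0%, against 48.3% of tested genes) and at least 1 for 28 of them, and its median was 1.03, against -0.04 over all genes tested. For 18 genes (35.3%) every cancer lay above every control, which held for 14.4% of all tested genes. Of these 18, 16 were among the genes that rose, and Mki67 and Kif4 were not, while for the other 9 that rose (Aurka, Cdc25c, Aurkb, Cenpa, Kif23, Kif2c, Tpx2, Ncapd2 and Cdc20) the groups touched or overlapped. The count of 25 rested on single libraries. It was 16 without cancer 1 (31.4%, against 13.9% of all genes tested in that fit), 14 without cancer 3 (27.5% against 12.3%) and 16 without control 1 (31.4% against 9.60%). It was 7 without control 2 (13.7% against 10.1%) and 8 without control 3 (15.7% against 10.7%), so in these last fits the share of the mitotic genes was near that of all genes. Of the 25 genes, 6 passed the test in all 8 fits that left out a library (Mad2l1, Cenph, Cenpm, Ndc80, Spc25 and Ncaph). Cdc20, Cdc25c, Cenpa and Ncapd2 passed in 1 of these fits, Aurkb and Kif23 in 2, Aurka and Tpx2 in 3 and Incenp in 4, and the other 10 passed in 5 to 7.

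The scaling of the libraries moved the size of these differences. With each library scaled to the same sum (TPM) 50 of the 51 genes were higher, but so were 50.0% of all tested genes, the median of all genes moved to 0.81 and that of the mitotic genes to 1.90. With quantile normalization, 19 of the 51 were higher beside 13.2% of all genes, with a median log2 fold change of 0.84 beside -0.0080 for all genes. This ended the calls of Cdc25c, Aurkb, Incenp, Cenpk, Kif23, Kif2c and Ncapd2, with adjusted p values of 0.056 to 0.13, and added that of Top2a. Relative to all genes the mitotic genes were thus on the higher side under each of the 3 scalings.

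**Figure D2:**
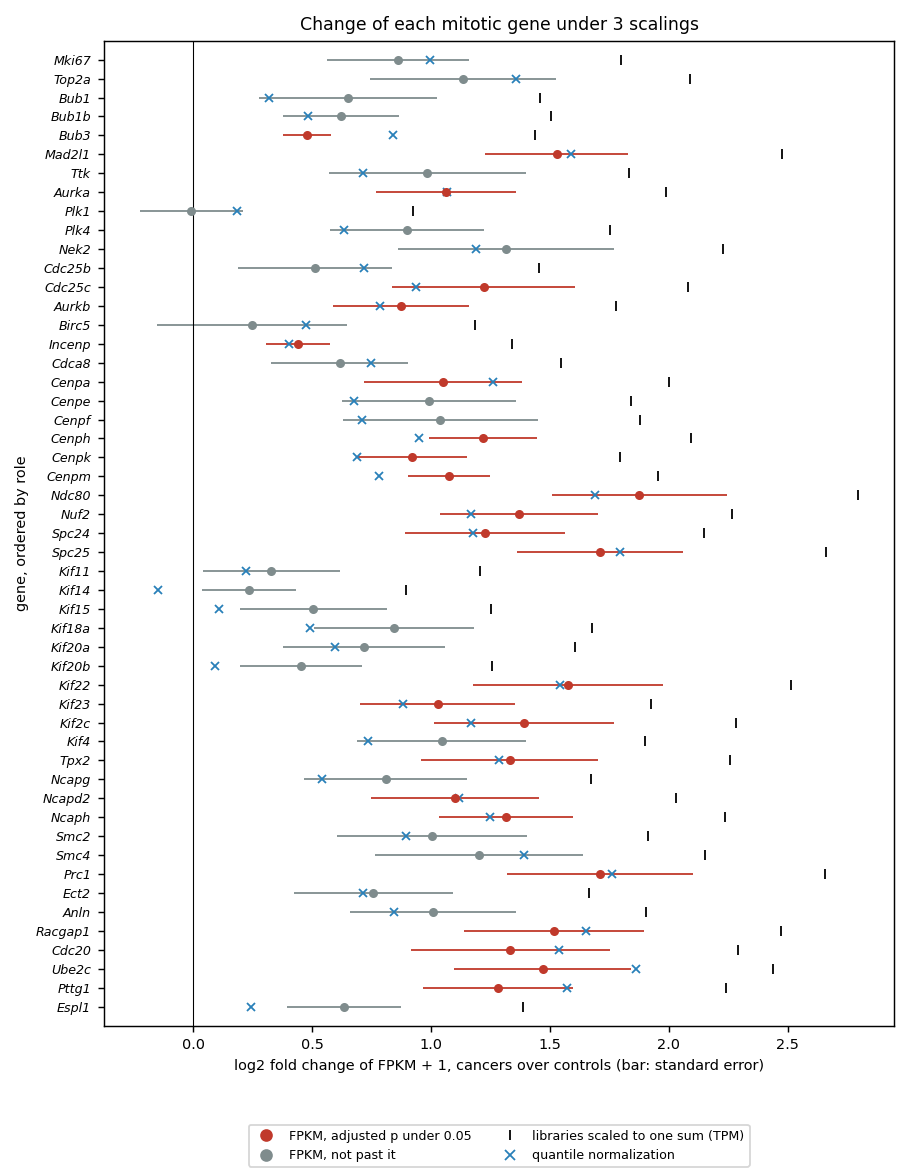
Log2 fold change of FPKM + 1 (cancers over controls, horizontal axis) for each of the 51 mitotic genes, ordered by role; circles with bars are the estimate on FPKM as deposited and its standard error, red where the adjusted p was under 0.05, black ticks are values after scaling each library to the same sum and blue crosses after quantile normalization. All but Plk1 lie above 0 on FPKM as deposited, 25 are red, and Kif14 lies below 0 with quantile normalization.

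The pair of genes most often read as marks of proliferation came close to the threshold without passing it. Mki67 (chr7:135689788-135716379, mm10), which encodes the Ki-67 protein that coats mitotic chromosomes, had 25, 13, 20, 11 and 11 FPKM in cancers 1 to 5 and 10, 7 and 7 FPKM in controls 1 to 3. Every cancer was above every control, by as little as 1 FPKM, with a mean of 16.0 ± 6.24 FPKM (SD, n = 5) against 8.0 ± 1.73 FPKM (SD, n = 3) and a log2 fold change of 0.86 (SE 0.30, limma adjusted p = 0.057). Top2a (chr11:98992947-99024189), the topoisomerase that untangles sister chromatids, had 44, 21, 32, 15 and 22 FPKM in the cancers and 18, 10 and 7 FPKM in the controls. Cancer 4 lay below control 1, and the log2 fold change was 1.13 (SE 0.39, limma adjusted p = 0.056; 1.36 and adjusted p = 0.042 with quantile normalization).

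Of the 5 spindle checkpoint genes, 2 rose, and they differed most in size and in evenness. Mad2l1 (chr6:66535468-66540991), the MAD2 protein that binds CDC20 at unattached kinetochores, had 21, 16, 21, 14 and 14 FPKM in the cancers and 9, 5 and 3 FPKM in the controls. The groups were well apart (log2 fold change 1.53, SE 0.30, limma adjusted p = 0.0090). Bub3 (chr7:131560391-131571898), its partner in the checkpoint complex, stood at 40, 38, 40, 35 and 37 FPKM in the cancers and 28, 26 and 27 FPKM in the controls. This rise was small but even, at 38.0 ± 2.12 FPKM (SD, n = 5) against 27.0 ± 1.0 (SD, n = 3), with a log2 fold change of 0.48 (SE 0.10, limma adjusted p = 0.012). The kinase genes of the checkpoint did not pass. Ttk, the MPS1 kinase, had 7, 3, 7, 2 and 3 FPKM in the cancers and 3, 1 and 1 FPKM in the controls (log2 fold change 0.98, SE 0.41, limma adjusted p = 0.099), so that only cancers 1 and 3 exceeded control 1. Bub1b had 4 to 8 FPKM in the cancers and 3 to 5 in the controls, and Bub1 had 2 to 5 and 1 to 3. The ratio of Mad2l1 to Bub1b, a pair picked after its values were seen and so given as a description, was 2.29 to 3.50 in the cancers and 1.0 to 1.8 in the controls.

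Among 6 genes of mitotic kinases and CDC25 phosphatases, 2 rose. Aurka (chr2:172356196-172370506), the Aurora A kinase of the spindle poles, had 15, 12, 14, 6 and 9 FPKM in the cancers and 6, 4 and 4 FPKM in the controls (log2 fold change 1.06, SE 0.29, limma adjusted p = 0.028). Cancer 4 only equalled control 1. Cdc25c (chr18:34732997-34751533), a phosphatase that activates CDK1 at entry into mitosis, had 7, 4, 8, 2 and 3 FPKM against 2, 1 and 1 FPKM (log2 fold change 1.22, SE 0.39, limma adjusted p = 0.045), a call that held in 1 of the 8 fits without a library. Nek2, a centrosome kinase, had 14, 7, 13, 3 and 12 FPKM against 4, 2 and 3 FPKM (log2 fold change 1.31, SE 0.45, limma adjusted p = 0.056). Here 4 cancers stood above all controls and cancer 4 within their range. Plk1 (chr7:122159437-122169875), the Polo-like kinase that acts from mitotic entry to cytokinesis, had the smallest change of all 51 genes. Its levels were 15, 21, 15, 12 and 11 FPKM in the cancers and 16, 12 and 16 FPKM in the controls, so that the groups overlapped throughout (log2 fold change -0.01, SE 0.22, limma adjusted p = 0.98), and with libraries scaled to the same sum its log2 fold change was 0.92 beside 0.81 for the median gene. Cdc25b, whose deposited locus is shared with 12 other genes, had 8 to 21 FPKM in the cancers and 8 to 14 in the controls, and Plk4, the kinase of centriole copying, 3 to 7 and 1 to 3.

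The chromosomal passenger complex (Aurora B, INCENP, survivin and borealin) corrects faulty attachments at the centromere and later marks the spindle midzone. Aurkb (chr11:69045643-69051662), its kinase, rose, with 10, 12, 9, 6 and 5 FPKM in the cancers and 5, 3 and 4 FPKM in the controls (log2 fold change 0.87, SE 0.29, limma adjusted p = 0.048). Incenp, its scaffold, rose as well, from 5.33 ± 0.577 FPKM (SD, n = 3) to 7.60 ± 0.894 FPKM (SD, n = 5), with every cancer above every control (log2 fold change 0.44, SE 0.14, limma adjusted p = 0.041). Aurkb in cancer 5 was level with control 1 and its call held in 2 of the 8 fits without a library, and the 2 rises were among the smaller ones called. Birc5 (chr11:117849237-117855743), which encodes survivin, had 23, 32, 20, 13 and 9 FPKM against 21, 11 and 14 FPKM. Cancer 5 held the lowest level of all libraries, and the log2 fold change was 0.25 (SE 0.40, limma adjusted p = 0.65). Cdca8, which encodes borealin and whose promoter carries the CHR overlapped by a CCAAT box, had 19, 17, 15, 8 and 10 FPKM against 10, 7 and 8 FPKM (log2 fold change 0.61, SE 0.29, limma adjusted p = 0.13). The ratio of Birc5 to Aurkb, also picked after its values were seen and built on rounded values, was 1.8 to 2.67 in the cancers and 3.50 to 4.20 in the controls. These 2 of the 6 ratios examined did not overlap between the groups.

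The genes of the centromere and kinetochore had the most calls of any role, 8 of 10, and roles were not compared by a test. At an unadjusted limma p under 0.05 all 10 were higher, as were 5 of 5 condensin and 4 of 4 exit genes, beside 22.6% of all tested genes. Their median log2 fold change was 1.15, against 1.31 for the exit genes and 1.26 for those of cytokinesis. The NDC80 complex, which grips the microtubule, is made of 4 subunits (Ndc80, Nuf2, Spc24 and Spc25), and all 4 rose with no overlap between the groups. Ndc80 (chr17:71496100-71526857) had the largest log2 fold change of the 51 genes, with 15, 6, 14, 6 and 6 FPKM in the cancers and 2, 2 and 1 FPKM in the controls (log2 fold change 1.88, SE 0.37, limma adjusted p = 0.0087). Spc25 (chr2:69193895-69206190) had 26, 17, 29, 12 and 19 FPKM in the cancers and 8, 6 and 3 FPKM in the controls (log2 fold change 1.71, SE 0.35, limma adjusted p = 0.010). In each of them cancers 1 and 3 were the highest. Nuf2 had 4 to 10 FPKM against 1 to 3 (log2 fold change 1.37, SE 0.33, limma adjusted p = 0.018) and Spc24 had 6 to 17 against 3 to 5 (log2 fold change 1.23, SE 0.34, limma adjusted p = 0.028).

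The other called genes of this role belong to the centromere. Cenpa, the histone H3 variant that marks the centromere, had 12 to 32 FPKM in the cancers and 8 to 12 FPKM in the controls (log2 fold change 1.05, SE 0.33, limma adjusted p = 0.045), a call that held in 1 of the 8 fits without a library. Cenph, Cenpk and Cenpm belong to the inner, constitutive network that links centromeric chromatin to the outer kinetochore, and all 3 rose from low levels. Cenpk (chr13:104205122-104249622) had the smallest change of the role, with 6, 4, 8, 5 and 4 FPKM in the cancers and 3, 2 and 2 FPKM in the controls (log2 fold change 0.92, SE 0.23, limma adjusted p = 0.021), and shares its deposited locus with Ppwd1. Cenpm, with 4 to 7 FPKM in the cancers and 2 FPKM in each control, had the lowest adjusted p of the 51 genes (log2 fold change 1.07, SE 0.17, limma adjusted p = 0.0043), although 3 equal rounded values leave little room for spread. The exceptions were a pair of large outer proteins. Cenpe, a kinetochore kinesin, had 7, 3, 7, 2 and 4 FPKM against 2, 2 and 1 FPKM (log2 fold change 0.99, SE 0.37, limma adjusted p = 0.068). Cenpf had 7, 2, 7, 2 and 3 FPKM against 2, 1 and 1 FPKM (log2 fold change 1.04, SE 0.41, limma adjusted p = 0.083). In both the level was high in cancers 1 and 3 and near the controls in cancers 2 and 4.

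The kinesins, the motors that slide, sort and shorten spindle microtubules, were uneven: with Tpx2, 4 of 11 genes rose. Kif22 (chr7:127027731-127042420), the chromokinesin that pushes chromosome arms towards the spindle equator, had 19, 13, 20, 7 and 8 FPKM in the cancers and 5, 2 and 4 FPKM in the controls (log2 fold change 1.57, SE 0.40, limma adjusted p = 0.021). All cancers were above all controls. Kif2c (chr4:117159636-117182624), a microtubule depolymerase that corrects attachments, had 9, 6, 8, 3 and 4 FPKM against 3, 1 and 1 FPKM (log2 fold change 1.39, SE 0.38, limma adjusted p = 0.027). Tpx2, the activator of Aurora A on spindle microtubules, had 17, 10, 16, 5 and 9 FPKM against 5, 3 and 3 FPKM (log2 fold change 1.33, SE 0.37, limma adjusted p = 0.030). Kif23, the motor of the central spindle, had 9, 8, 11, 5 and 4 FPKM against 4, 3 and 2 FPKM (log2 fold change 1.03, SE 0.33, limma adjusted p = 0.044). In Kif2c and Tpx2 cancer 4 only equalled control 1, and in Kif23, whose call held in 2 of the 8 fits without a library, cancer 5 did.

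Another 7 kinesins were not called. Kif11, the motor that pushes the spindle poles apart, had 6, 5, 9, 4 and 6 FPKM in the cancers and 7, 4 and 3 FPKM in the controls (log2 fold change 0.33, SE 0.29, limma adjusted p = 0.39), with only cancer 3 above control 1. Kif14 was at 1 or 2 FPKM in every library (log2 fold change 0.23, SE 0.20, limma adjusted p = 0.37), a range in which rounding sets the value, and its log2 fold change was -0.15 with quantile normalization. Kif4, a chromokinesin, had 8, 3, 7, 3 and 3 FPKM against 2, 2 and 1 FPKM, without overlap (log2 fold change 1.04, SE 0.35, limma adjusted p = 0.054). Kif15, Kif18a, Kif20a and Kif20b had adjusted p values between 0.084 and 0.23.

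**Figure D3:**
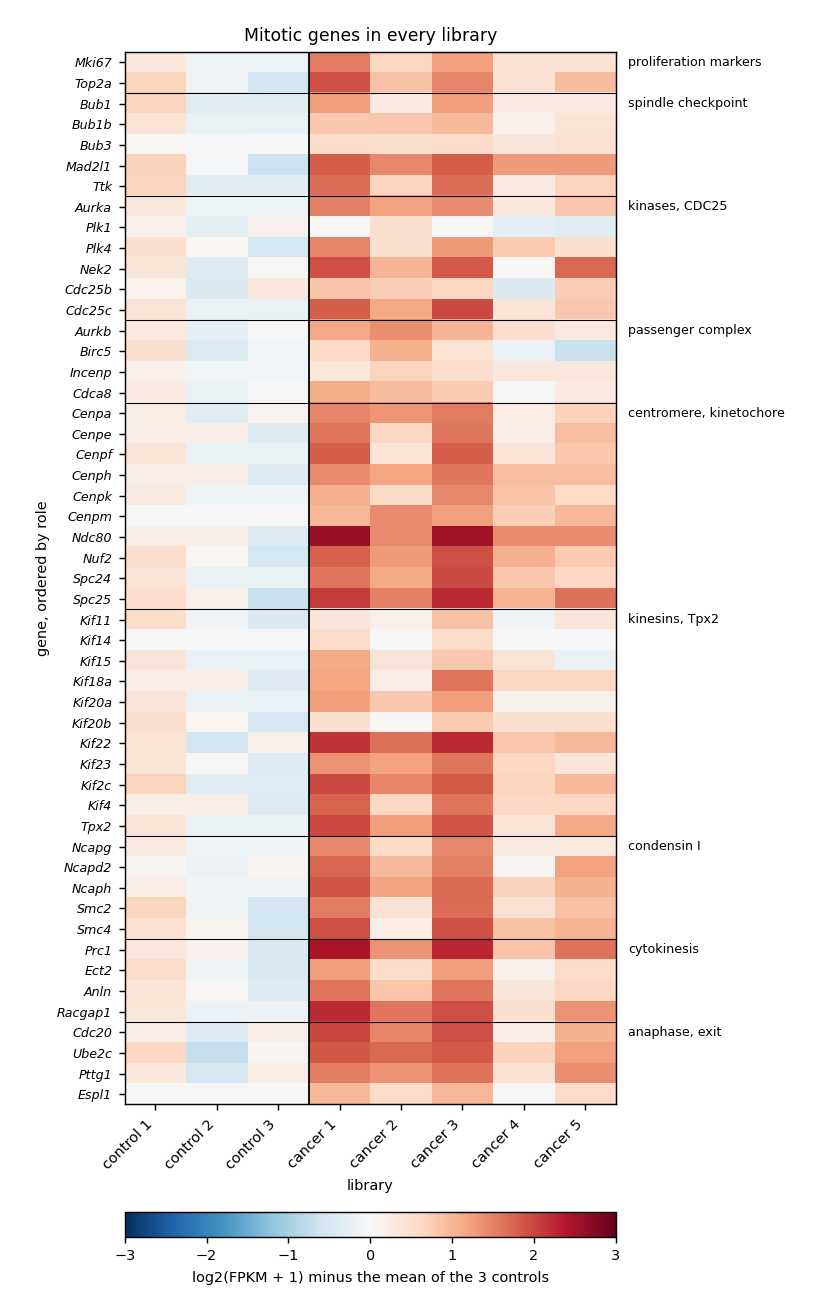
Log2(FPKM + 1) of each of the 51 mitotic genes (rows, by role) in the 3 controls and 5 cancers (columns), minus the mean of the 3 controls for that gene; red is higher and blue lower. Cancers 1 and 3 are the reddest columns, cancer 4 is the palest cancer, Plk1 and Birc5 are pale or blue in cancers 4 and 5, and control 1 is the reddest control.

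Condensin I is a ring of SMC2 and SMC4 closed by NCAPH and joined by NCAPG and NCAPD2. Of its 5 genes, 2 rose. Ncaph (chr2:127103810-127133954) had 15, 9, 13, 6 and 8 FPKM in the cancers and 4, 3 and 3 FPKM in the controls (log2 fold change 1.31, SE 0.28, limma adjusted p = 0.012), with no overlap. Ncapd2 had 18, 10, 15, 5 and 12 FPKM against 5, 4 and 5 FPKM (log2 fold change 1.10, SE 0.35, limma adjusted p = 0.046), and cancer 4 was level with controls 1 and 3. This call, too, held in 1 of the 8 fits without a library. Smc4 had 38, 11, 38, 18 and 20 FPKM against 13, 10 and 6 FPKM (log2 fold change 1.20, SE 0.44, limma adjusted p = 0.065). Its cancers spread more widely, with cancer 2 below control 1. Ncapg had 8, 4, 8, 3 and 3 FPKM against 3, 2 and 2 FPKM (log2 fold change 0.81, SE 0.34, limma adjusted p = 0.099), and Smc2 had 5 to 13 against 2 to 6 (adjusted p = 0.084). The ratio of Smc4 to Smc2, partners in one ring, was 2.2 to 3.6 in the cancers and 2.17 to 3.33 in the controls, ranges that overlapped.

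Cytokinesis genes had 2 calls of 4. Prc1 (chr7:80294465-80316259), which bundles the microtubules of the central spindle, had 29, 13, 26, 9 and 16 FPKM in the cancers and 6, 5 and 3 FPKM in the controls (log2 fold change 1.71, SE 0.39, limma adjusted p = 0.015). Racgap1 (chr15:99620496-99651656), the centralspindlin subunit that binds ECT2, had 36, 23, 29, 10 and 19 FPKM against 9, 6 and 6 FPKM (log2 fold change 1.52, SE 0.38, limma adjusted p = 0.020). In both all cancers exceeded all controls, cancer 4 by the least. Ect2, the exchange factor that activates RhoA at the cleavage furrow, had 12, 7, 12, 5 and 7 FPKM against 7, 4 and 3 FPKM (log2 fold change 0.76, SE 0.33, limma adjusted p = 0.11), and Anln, the furrow scaffold, had 4 to 11 against 2 to 4 (adjusted p = 0.057). The deposited locus of Anln is shared with 14 other genes, among them the muscle gene Cnn1.

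Of 4 genes of anaphase and mitotic exit, 3 rose. Ube2c (chr2:164769929-164772902), the ubiquitin-conjugating enzyme of the anaphase-promoting complex, had 82, 74, 80, 36 and 52 FPKM in the cancers and 34, 13 and 23 FPKM in the controls. It was the most abundant mitotic gene in every cancer, at 64.8 ± 20.03 FPKM (SD, n = 5) against 23.3 ± 10.5 FPKM (SD, n = 3), without overlap (log2 fold change 1.47, SE 0.37, limma adjusted p = 0.021). Cdc20 (chr4:118428093-118437343), the activator that the checkpoint holds back, had 41, 28, 39, 11 and 21 FPKM against 11, 7 and 11 FPKM (log2 fold change 1.33, SE 0.42, limma adjusted p = 0.043). Cancer 4 equalled controls 1 and 3, and the call held in 1 of the 8 fits without a library. Pttg1, securin, had 42, 36, 44, 19 and 37 FPKM against 17, 9 and 16 FPKM, without overlap (log2 fold change 1.28, SE 0.32, limma adjusted p = 0.019). Espl1, the separase that securin inhibits, was at 3, 2, 3, 1 and 2 FPKM against 1, 1 and 1 FPKM (log2 fold change 0.63, SE 0.24, limma adjusted p = 0.074).

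The cancers were not alike. The highest cancer was cancer 1 or 3 for 46 of the 51 genes (90.2%, against 46.2% of all tested genes), and for 44 of them the lower of these 2 was at or above the remaining cancers (86.3% against 29.0%). The lowest was cancer 4 or 5 for 48 genes (94.1% against 50.9%). Cancer 4 was lowest or tied for lowest in 39 genes, while 33.8% of all tested genes had their lowest cancer value there. It lay above the highest control in 23 genes, level with it in 15 and below it in 13, whereas cancer 3 lay above in 49, cancer 1 in 48, cancer 2 in 39 and cancer 5 in 35. Of all tested genes, 29.8% lay above the highest control in cancer 4, 36.9% in cancer 3, 36.8% in cancer 1, 28.0% in cancer 2 and 33.2% in cancer 5. The FPKM of the 51 genes summed to 850, 609, 824, 383 and 509 in cancers 1 to 5. Among the controls, which summed to 361, 232 and 249 FPKM, control 1 was highest or tied in 50 of the 51 genes, as it was in 50.8% of all tested genes.

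Markers of other cells varied across the same libraries. The gland markers summed to 694 and 6015 FPKM in cancers 1 and 3, where the mitotic genes were highest, to 16662 FPKM in cancer 5 and to 78716 and 55566 FPKM in cancers 2 and 4. Squamous markers summed to 0 and 307 FPKM in cancers 1 and 3, 16 in cancer 2, 483 in cancer 5 and 1606 in cancer 4, where the mitotic genes were lowest. The lymphocyte markers, which cover the B and T lineages, summed to 112 FPKM in cancer 1, where the B cell genes Cd79a and Ms4a1 stood at 68 and 26 FPKM, and to 1 to 9 FPKM in every other library. The muscle markers summed to 1313 FPKM in cancer 2 and to 41 to 434 FPKM elsewhere. Fibroblast markers summed to 61 to 310 FPKM in the cancers and 68 to 127 FPKM in the controls, myeloid markers to 46 to 856 and 119 to 379 FPKM, endothelial markers to 12 to 38 and 6 to 9 FPKM, and epithelial markers to 712 to 2812 and 3157 to 4577 FPKM. Of these lists, past the test were 2 of 4 endothelial and 1 of 6 myeloid markers, all higher, 1 epithelial marker higher and 2 lower of 4, and 0 of 5 fibroblast, 0 of 5 muscle and 0 of 4 tested lymphocyte markers in limma (1, 0 and 1 of them at an unadjusted p under 0.05). Pgc, a chief cell marker, was listed at 28832, 0 and 0 FPKM in controls 1 to 3. The neuroendocrine markers, at 14624, 7746, 17202, 14874 and 15984 FPKM in cancers 1 to 5, had a mean log2 level of 9.14, 8.25, 9.40, 8.57 and 9.30 there. Without cancer 1 the mitotic genes that rose numbered 16 in place of 25, and the median log2 fold change was 0.86 in place of 1.03. The part of these cells in the results was not tested.

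**Figure D4:**
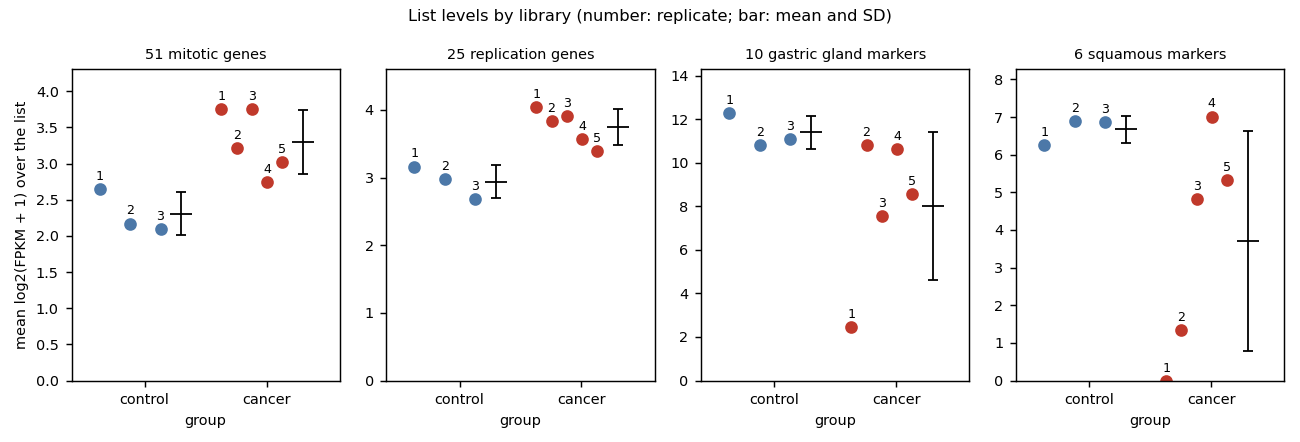
Mean log2(FPKM + 1) over the 51 mitotic genes, 25 DNA replication genes, 10 gland markers and 6 squamous markers in each library; points are libraries, numbered by replicate, and bars are the group mean and SD. Mitotic and replication genes lie higher in all 5 cancers than in all controls, with cancer 4 the lowest for the mitotic genes and cancer 5 for replication, while gland and squamous markers spread widely among the cancers.

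Other genes, most of them of the mitotic machinery, were counted in the same way. Of these 99 genes 28 rose and 4 fell, with a median log2 fold change of 0.55, and the difference from the 51 genes was not tested. The count that rose was 18 with quantile normalization, where 13.2% of all tested genes rose, and 84 with libraries scaled to the same sum (TPM), where 50.0% did. Among 28 other centromere and kinetochore genes 10 rose and 0 fell in limma (16 higher and 1 lower at an unadjusted p under 0.05), led by Zwint, which had 16 to 37 FPKM in the cancers and 6 to 11 FPKM in the controls (log2 fold change 1.38, SE 0.33, limma adjusted p = 0.017), and Cenpp (log2 fold change 1.30, SE 0.30, limma adjusted p = 0.016). With quantile normalization 2 of these 28 rose, a share under that of all tested genes, and with TPM 26 did. A list of 21 other spindle and kinesin genes also held the transport kinesins Kif1b, Kif3a and Kif5b. Of the 21 genes 7 rose, Kifc1, a minus-end motor, by the most (4 to 13 against 1 to 2 FPKM, log2 fold change 1.74, SE 0.37, limma adjusted p = 0.011), followed by Nusap1 (1.46, SE 0.41, limma adjusted p = 0.030), and the count was 4 with quantile normalization and 16 with TPM. The 3 that fell, Haus8, Kif1b and Fam83d, had log2 fold changes of -0.88, -0.99 and -0.77, which became -0.0011, -0.075 and 0.11 with libraries scaled to the same sum. The shares were at or under the 16.2% of all tested genes in the next pair of lists. Among cohesin and condensin II genes Cdca5 rose, 1 of 16 (log2 fold change 0.59, SE 0.18, limma adjusted p = 0.038), with a median of 0.33 for the list (0 with quantile normalization and 12 with TPM). Of 15 genes of the anaphase-promoting complex and its enzymes 2 rose, Ube2s (108 to 173 against 57 to 84 FPKM, log2 fold change 0.94, SE 0.23, limma adjusted p = 0.018) and Anapc5 (0.58, SE 0.19, limma adjusted p = 0.049), against 4 with quantile normalization and 13 with TPM. Among 19 regulators 8 rose (8 with quantile normalization and 17 with TPM). The list joined genes of mitotic entry with transcription factors and MuvB subunits, of which Foxm1 and Rbbp4 rose. Cdk1 had 12 to 29 against 5 to 10 FPKM (log2 fold change 1.45, SE 0.33, limma adjusted p = 0.014) and Ccnb1 had 10 to 31 against 5 to 11 FPKM (1.43, SE 0.39, limma adjusted p = 0.027). Wee1, the kinase that inhibits CDK1, was the 1 regulator that fell, with 6 to 10 FPKM in the cancers and 16 to 23 in the controls (log2 fold change -1.18, SE 0.20, limma adjusted p = 0.0055; -0.27 with libraries scaled to the same sum).

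DNA replication genes, which act earlier in the cell cycle, rose in 17 of 25 cases and fell in 0 by limma, beside 16.2% and 18.3% of all tested genes. At an unadjusted limma p under 0.05, 18 were higher and 0 lower, beside 22.6% and 25.3%. Their median log2 fold change was 0.98. With quantile normalization 14 rose, beside 13.2% of all tested genes, and with TPM 21 did, beside 50.0%. For 17 of the 25, beside 14.4% of all tested genes, every cancer was above every control, against 18 of the 51 mitotic genes. Their mean log2 level was 3.75 ± 0.27 (SD, n = 5) in the cancers and 2.94 ± 0.25 (SD, n = 3) in the controls, and that of the mitotic genes was 3.30 ± 0.45 and 2.31 ± 0.30. The difference between the 2 lists was not tested.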

How the data were processed

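RNA of 5 SCJ cancers and 3 control SCJ tissues was sequenced. The labels name directional poly(A)-selected NEBNext libraries, while the study's methods name the Illumina TruSeq system, and which was used could not be settled here. The deposited values are FPKM that the authors made with cuffquant and cuffnorm 2.2.1 on UCSC mm10 genes after trimming with cutadapt 1.8; the submitters' processing notes also name TopHat2 2.0.13. The between-library option of cuffnorm is not given in the sources used here. The authors rounded the values to whole numbers (100% were whole), so they were treated as a score and not as counts, and depth per library is unknown.

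A gene entered the test if 3 or more samples had an FPKM of 1 or more, which left 14357. log2(FPKM + 1) was compared with limma 3.58.1 in R 4.3.3 (eBayes with trend), with p adjusted by Benjamini-Hochberg over all of them, at a threshold of 0.05. Fold changes on this scale understate those of low genes. The exact permutation test of single genes (two-sided, 56 ways of choosing 5 of 8 samples) cannot go below p = 0.018, and 13 of the 51 genes reached it. The fit was tested on simulated data. Locus starts were moved by 1 base to count from 1. Loci of 8 of the 51 genes are shared with another gene, where reads could be split in ways not stated.

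The members, gene lists and tests were chosen with earlier results of these data known. Genes named are, in each role, the 2 with the largest and the 1 with the smallest change and those whose call is in the minority, with Mki67, Top2a, Trp53 and Rb1, and up to 2 called genes for each other list; the remaining genes named, and the ratios, were picked after their values were seen. The promoter search, its distances, the stretches printed and the motifs kept were also chosen after values were seen, and 4 further letter strings that were tried are not reported. Of the 49 windows, 38 had their downstream bases in a GENCODE transcript of the gene on the same strand. Samples with the same number were checked for pairing: their deviations correlated at -0.02, -0.19 and -0.10, so no pairing was used. A pair of cell type markers is not reported here and was left out of its lists.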

Additional observations from a re-analysis of the deposited data

Results flagged for a closer look

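Among the 62 single-gene results examined for a library far from its group, 2 stood out in the group of 5 cancers (Dixon's gap over range, critical value 0.71), where chance alone flags about 3.1. In Cdc25b cancer 4, at 8 FPKM, was far below the other cancers at 18 to 21 FPKM (ratio of gap to range 0.836 on the log2 scale). In Pttg1 cancer 4, at 19 FPKM, was far below the others at 36 to 44 FPKM (0.759). Cancer 4 was also the cancer with the lowest sum over the mitotic genes, and a Dixon test of 3 controls was not made.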

How the results depend on the processing

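The count of 25 mitotic genes higher in the cancers became 50 with each library scaled to the same sum (TPM) and 46 with array weights, where 50.0% and 27.2% of all tested genes rose. It ranged from 7 to 34 when each library was left out in turn (13.7% to 66.7% of the mitotic genes), where 9.60% to 17.4% of all genes rose. A pseudocount of 0.1, no filter, quantile normalization and eBayes without trend gave 19 to 26, and testing only the 34 with a mean FPKM of 5 or more gave 22. The count lower was 0 under all 16 alternatives. The median log2 fold change was 1.90 with TPM, where the median of all genes was 0.81, and 0.85 to 1.17 without single libraries. Plk1 reversed to 0.92 with TPM, 0.18 with quantile normalization and 0.12 with array weights, and ranged from -0.14 to 0.082 without single libraries. Kif14 reversed to -0.15 with quantile normalization, and Trp53 to 0.86 with TPM and 0.13 with quantile normalization, ranging from -0.29 to 0.027 without single libraries. The causes were not tested. Calls in all 8 fits that left out a library were kept by 6 genes (Mad2l1, Cenph, Cenpm, Ndc80, Spc25 and Ncaph). Depth is unknown, and rounding limits genes of a few FPKM.

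No pairing of the samples by replicate number was seen in their expression. A fit with the replicate number as a block called 12 of the 51 genes (23.5%) higher, beside 6.84% of all tested genes, and 0 lower, with a median log2 fold change of 1.33, and Plk1 reversed to 0.19 in it. Cancers 4 and 5 share their number with no control and formed blocks of their own. The group difference in this fit thus rested only on the cancers and controls with a shared number. The cancers left out of it had the lowest sums over the mitotic genes, so its median is not one of all cancers.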
